A study of Mus musculus with 10 samples.

Results

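The genes described here encode membrane proteins and a scaffold of the tight junction, together with the adhesion molecule of the epithelial adherens junction. The 9 genes were chosen by name, and every probe set of the array whose platform annotation gave 1 of them as its only gene symbol was taken. This gave 9 of the 18194 genes with such an annotation, and 15 probe sets of the 45101 on the array. Of the 15, 13 probe sets covering 8 of the genes passed the filter on dim values, which asks for a value above the median of the whole table, 4.20 on the log2 scale, on at least 5 arrays. The only Cldn4 probe set and 1 of the 2 F11r probe sets did not pass it.

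The arsenic group was 5 adult female C57BL/6 mice given arsenic at 50 ppm in drinking water for 12 weeks from 8 weeks of age, and the control group was 5 such mice given deionized water. The design text names the compound as arsenate and the sample protocols as arsenite, so the group is called arsenic here. RNA of lung tissue of each mouse was hybridised to 1 Affymetrix Mouse430_2 array, which reads a transcript through 1 or more sets of short probes, and the deposited values are log2 expression values. The labels give no genetic modification, and each array is a separate animal.

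Epithelial cells of the airway and alveolus are sealed by tight junctions. Claudins form the strands and set which ions pass, occludin and tricellulin (Marveld2) are related proteins with a MARVEL domain, the junctional adhesion molecule JAM-A (F11r) is an immunoglobulin-like protein, and ZO-1 (Tjp1) anchors them to actin. E-cadherin (Cdh1) holds neighbouring cells together below the tight junction and binds catenins. In the lung, Cldn18 is the claudin typical of the alveolus, while Cldn3, Cldn4 and Cldn7 are found in alveolar type 2 and airway cells.

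The arrays had medians between 4.11 and 4.26 and correlated with each other at 0.990 to 0.997 over all probe sets. Lung identity was plain on all of them: the 10 alveolar type 1, 9 type 2 and 7 club-cell marker genes measured were each above the filter level on every array, and no probe set of these lists passed the test between groups. Over all probe sets tested 17.2% had an unadjusted p under 0.05. Of 11 fibroblast marker probe sets 4 had one and none passed the adjusted test, with a mean level of 10.81 ± 0.28 with arsenic and 11.01 ± 0.23 in controls. The level of 5 mesothelial genes ranged over 7.30 to 10.19 with arsenic and 8.42 to 9.98 in controls. Transcripts of kidney were also present, and unevenly so. Umod, the tubule protein uromodulin, ranged over 7.66 to 10.73 in arsenic lungs and over 3.45 to 8.94 in control lungs. The mean log2 level of 25 kidney genes ranged over 4.52 to 6.01 with arsenic and over 3.70 to 5.02 in controls, highest in arsenic animal 4 and lowest in control animal 1. It averaged 5.00 ± 0.59 with arsenic and 4.34 ± 0.47 in controls (SD, n = 5 each). Of 15 kidney probe sets tested 8 had an unadjusted p under 0.05 and none passed the adjusted test, and their median log2 fold change was 0.99. Of the 25 genes, 9 stayed below the filter level on every array, among them Aqp2, Slc12a3, Calb1 and Pax8. Results below are given also when the kidney level was a covariate wherever this moved a value by over 1.5 times. In whole tissue, fewer cells of a type and less RNA per cell cannot be told apart.

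None of the 13 junction probe sets that passed the filter also passed the test between arsenic and control lungs (limma, adjusted p between 0.292 and 0.970 over 22495 probe sets). None had an unadjusted limma p under 0.05, though F11r was close at 0.0506, and in none did the groups separate. Over all probe sets tested, 0.440% passed an adjusted p of 0.05, 17.2% had an unadjusted p under 0.05 and 3.86% had groups that did not overlap. Against 0.440%, none of 13 is not a result about these genes. In this fit the 95% interval lay within 0.5 log2 of 0 for 12 of the 13 probe sets and within 1 for all 13. Other fits moved some values, Tjp1 the furthest, to -0.76 with the kidney level as a covariate. Their median log2 fold change was 0.030, against 0.026 over all probe sets tested. The median size of the change without sign was 0.045, against 0.14 over all probe sets tested. 8 of the 13 differences were positive and 5 negative, and 55.3% were positive over all probe sets tested. All Cldn3 probe sets were among the positive ones, and probe sets of the same gene are not independent.

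**Figure D1:**
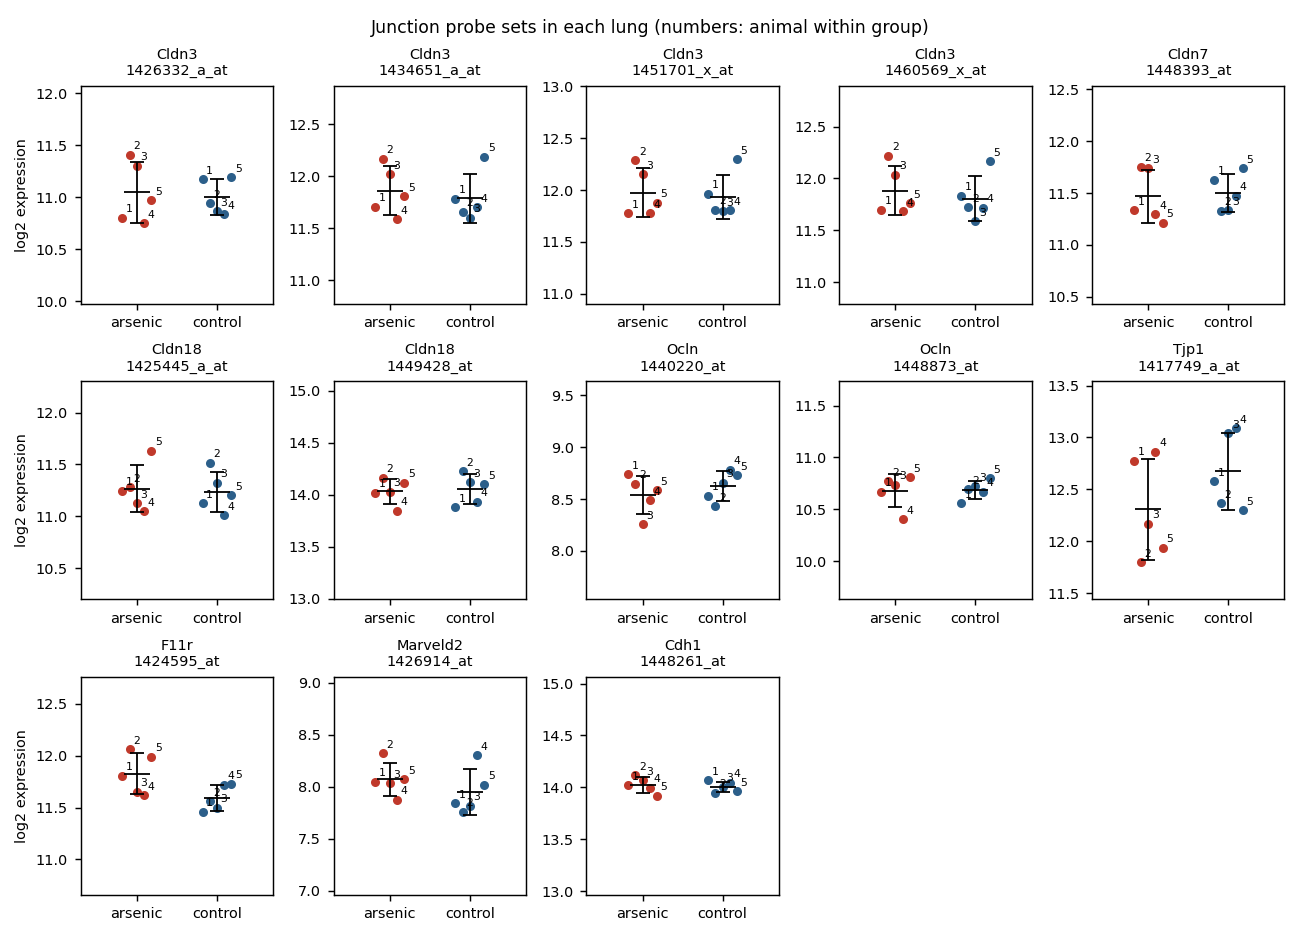
Log2 expression of the 13 junction probe sets that passed the filter, with arsenic lungs on the left and control lungs on the right of each panel. Points are animals, numbered within their group, the horizontal line is the mean and the bar 1 SD (n = 5 each). Every panel spans the same log2 range, so the wide scatter of Tjp1 and the narrow scatter of Cdh1 can be compared, and in every panel the groups overlap.

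**Figure D2:**
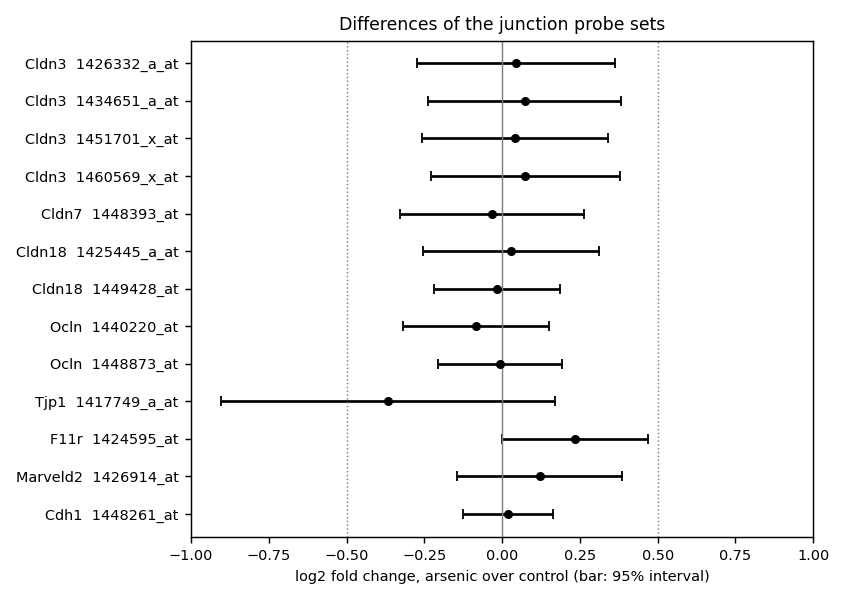
Log2 fold change of each probe set, arsenic over control, with its 95% interval from limma. Dotted lines mark 0.5 log2 to either side of 0. Only the interval of Tjp1 passes a dotted line, and every interval includes 0.

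Of the proteins that form the strands, Cldn3 was read by 4 probe sets. By 1451701_x_at, the one of highest mean, the arsenic lungs 1 to 5 had 11.78, 12.29, 12.15, 11.78 and 11.88, and the control lungs 11.97, 11.81, 11.79, 11.80 and 12.30. Arsenic animals 2 and 3 and control animal 5 were high and the other lungs lay close together, so the high lungs came from either group. The means were 11.98 ± 0.23 with arsenic and 11.93 ± 0.21 in controls (SD, n = 5 each), a log2 fold change of 0.041 (SE 0.14, limma adjusted p = 0.888). The other Cldn3 probe sets had 0.045, 0.072 and 0.075. When the kidney level was a covariate the 4 values lay between 0.16 and 0.24, with adjusted p of 0.309 and above. Pearson correlations between the 4 over the 10 arrays ran from 0.88 to 0.98, so they varied much alike, though no rank correlation was computed. In probe sets ending in _x_at some probes also match other transcripts, which is background from the array's naming scheme.

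Cldn7, a claudin that also lies along the lateral membrane, had 11.34, 11.75, 11.74, 11.30 and 11.21 in arsenic lungs 1 to 5 and 11.63, 11.33, 11.34, 11.47 and 11.74 in control lungs 1 to 5. The same 3 lungs were highest as for Cldn3. The log2 fold change was -0.033 (SE 0.13, 95% interval -0.33 to 0.26, adjusted p = 0.912). Its sign changed to 0.030 when arrays were centred on their median and to 0.060 when the kidney level was a covariate.

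Cldn18, which is transcribed from separate promoters in lung and stomach, was read by a pair of probe sets. By 1449428_at the arsenic lungs had 14.02, 14.16, 14.03, 13.85 and 14.12 and the control lungs 13.88, 14.23, 14.12, 13.93 and 14.10. The lungs of the groups interleaved, and the log2 fold change was -0.017 (SE 0.092, 95% interval -0.22 to 0.19, adjusted p = 0.934), or 0.050 when the kidney level was a covariate. The other probe set, 1425445_a_at, ran over 11.05 to 11.63 with arsenic and 11.01 to 11.52 in controls, with a log2 fold change of 0.030 (SE 0.13), or 0.16 when the kidney level was a covariate.

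Cldn4, a claudin known to rise in injured alveolar epithelium, could not be compared. Its probe set 1418283_at was below the filter level on all 10 arrays, at 1.74, 2.49, 2.24, 1.65 and 1.604 in arsenic lungs 1 to 5 and at 1.77, 1.54, 1.64, 1.84 and 1.86 in control lungs 1 to 5. The values of arsenic animals 2 and 3 stood above the other 8. GCRMA, the normalization used by the authors, draws dim probe sets towards a floor. Tested without the filter it had a log2 fold change of 0.21 (limma adjusted p = 0.512).

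The 2 MARVEL-domain genes are neighbours on chromosome 13, and neither passed the test. Ocln, encoding occludin, had 10.67, 10.77, 10.74, 10.41 and 10.81 in arsenic lungs and 10.56, 10.69, 10.72, 10.67 and 10.80 in control lungs by probe set 1448873_at. Arsenic animal 4 was the lowest of the 10 and the others overlapped, with a log2 fold change of -0.0079 (SE 0.090, 95% interval -0.21 to 0.19), or 0.083 when the kidney level was a covariate. The other Ocln probe set, 1440220_at, had -0.084 (SE 0.11, adjusted p = 0.690), or -0.13 when the kidney level was a covariate. It did not vary like 1448873_at, as the Pearson correlation between them over the 10 arrays was 0.20.

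Marveld2, encoding the tricellulin of three-cell contacts, had 8.05, 8.32, 8.03, 7.88 and 8.07 in arsenic lungs and 7.84, 7.76, 7.82, 8.31 and 8.02 in control lungs. 1 lung of each group, arsenic animal 2 and control animal 4, was high. The log2 fold change was 0.12 (SE 0.12, 95% interval -0.14 to 0.39, adjusted p = 0.610).

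F11r, which encodes JAM-A, had the smallest p of the 9 genes. Its values were 11.81, 12.06, 11.65, 11.62 and 11.99 in arsenic lungs 1 to 5 and 11.46, 11.56, 11.50, 11.72 and 11.73 in control lungs 1 to 5. 3 of the 5 arsenic lungs lay above every control, and arsenic animals 3 and 4 lay among the controls. The means were 11.83 ± 0.20 with arsenic and 11.59 ± 0.13 in controls, a 1.18-fold difference with a 95% interval of 1.00 to 1.38, and the test over all probe sets was not passed (limma adjusted p = 0.292). The adjusted p stayed between 0.171 and 0.564 in the fits that left out 1 array. The other F11r probe set, 1436374_x_at, lay between 2.94 and 3.00 on every array, below the filter level, and carries no measurement of the gene.

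Tjp1, the scaffold ZO-1, varied most from animal to animal. Its values were 12.78, 11.80, 12.17, 12.86 and 11.94 in arsenic lungs 1 to 5 and 12.58, 12.37, 13.04, 13.09 and 12.30 in control lungs 1 to 5. Arsenic animals 2, 3 and 5 lay below every control, while arsenic animals 1 and 4 lay among the controls. The means were 12.31 ± 0.49 with arsenic and 12.67 ± 0.37 in controls, a log2 fold change of -0.37 (SE 0.24, 95% interval -0.90 to 0.17, limma adjusted p = 0.441). The spread within groups was larger than for 90.1% of the probe sets tested, and this interval is the widest of the 13. When the kidney level was a covariate the log2 fold change was -0.76 (SE 0.22, adjusted p = 0.108), and without arsenic animal 4 and control animal 2 it was -0.58 (adjusted p = 0.211). Neither fit passed the threshold.

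Cdh1, encoding E-cadherin, was the steadiest. Its values were 14.02, 14.12, 14.07, 14.00 and 13.92 in arsenic lungs 1 to 5 and 14.07, 13.95, 14.00, 14.04 and 13.96 in control lungs 1 to 5. The log2 fold change was 0.019 (SE 0.066, limma adjusted p = 0.897), which is 1.01-fold with a 95% interval of 0.916 to 1.12. The spread within groups was smaller than for most probe sets, at the percentile 2.58.

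The junction genes also varied from animal to animal. Over the 10 lungs, with each gene at its probe set of highest mean, 28 pairs of the 8 measured genes were compared. Cldn3 and Cldn7 had a Pearson correlation of 0.89 (permutation p = 0.00115, 0.0322 adjusted over the 28 pairs) and a Spearman rho of 0.72 (permutation p = 0.0219, adjusted 0.123). The Pearson correlation was 0.82 without arsenic animal 2 and control animal 5, the lungs farthest from the median of Cldn3, and 0.90 with the group means removed. It was the only pair past an adjusted p of 0.05, and by Spearman's rho none was. With 5 animals a group no correlation was computed within groups.

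The level of a list of epithelial markers moved with these claudins, at a Pearson correlation of 0.89 with Cldn3 and 0.92 with Cldn7. The alveolar lists did not follow: type 1 markers had -0.17 and -0.46, and type 2 markers 0.21 and -0.072. Club-cell markers had 0.47 and 0.64, ciliated markers 0.44 and 0.74, and endothelial markers -0.54 and -0.82. With the type 2 list Cldn18 had 0.75 and Ocln 0.67, and the other measured junction genes lay between -0.44 and 0.30. The mean log2 level of 7 epithelial markers, of which Cdh1 itself is 1 and the keratins Krt7, Krt8, Krt18 and Krt19 are 4, was 11.73, 12.01, 12.07, 11.63 and 11.75 in arsenic lungs 1 to 5 and 11.88, 11.60, 11.71, 11.84 and 12.02 in control lungs 1 to 5. The 3 highest were arsenic animals 2 and 3 and control animal 5, the lungs that were also highest for Cldn3 and Cldn7. The part of this level in the correlation of Cldn3 with Cldn7 was not tested. Between groups the level averaged 11.84 ± 0.19 with arsenic and 11.81 ± 0.16 in controls, and none of 10 epithelial probe sets passed the test.

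Other pairs did not pass after adjustment. F11r and Marveld2 had a correlation of 0.77 (permutation p = 0.00945, adjusted 0.0882; rho 0.85, adjusted p = 0.0734). Cldn18 and Ocln had 0.78 (permutation p = 0.00549, adjusted 0.0769; rho 0.68, adjusted p = 0.162). The correlation was 0.38 without arsenic animal 4 and control animal 1, the lungs farthest from the median of Cldn18. Leaving out such lungs narrows the range, so this cannot show that the relation rested on them. Tjp1 ran against the claudin Cldn3, at -0.69 (permutation p = 0.0317, adjusted 0.222; rho -0.75, adjusted p = 0.123).

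**Figure D3:**
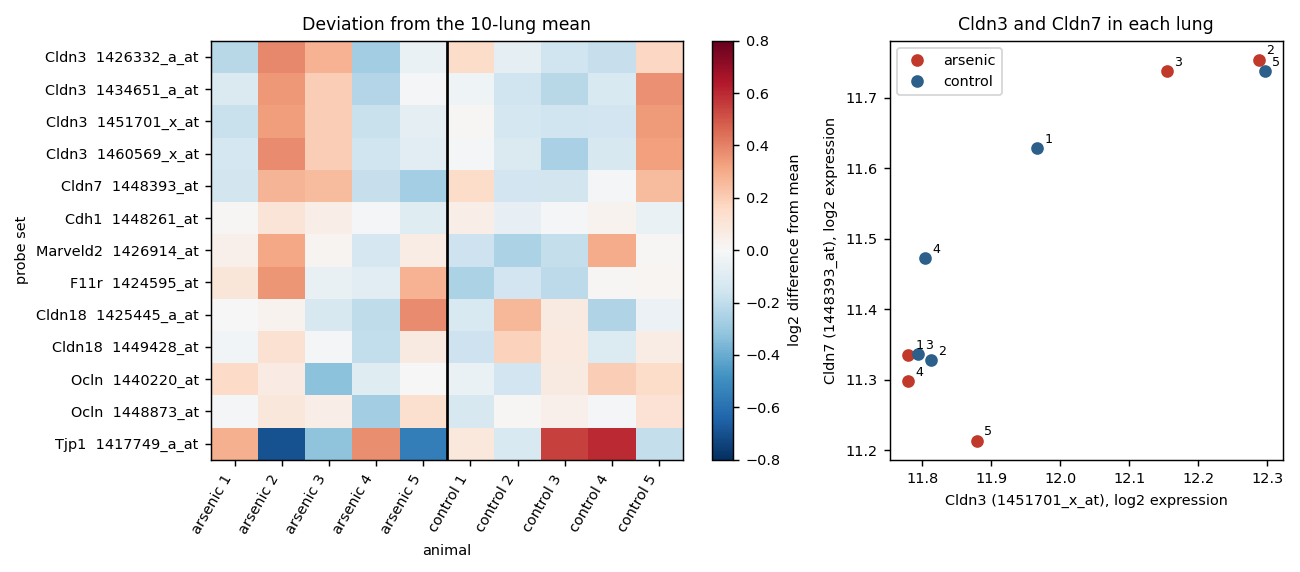
The left panel shows each probe set's deviation from its mean over the 10 lungs on the log2 scale, arsenic animals left and control animals right of the line. The right panel sets Cldn7 against Cldn3, both as log2 expression, with 1 point for each animal. Arsenic animals 2 and 3 and control animal 5 are high for both genes, and Tjp1 has the strongest colours of the left panel.

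For each measured gene the 3 genes of most similar profile over the 10 arrays were found among 11324 others, as the highest of so many correlations, and no p is given for them. Tjp1 was most like the protease gene Adam10 (r = 0.99, rho = 0.99), which sheds E-cadherin from the cell surface, the guanine nucleotide exchange factor gene Sos1 (r = 0.99, rho = 0.99) and the scaffold gene Dlg1 (r = 0.99, rho = 0.98). Cldn3 was most like B3gat3 (r = 0.98), Krtcap3 (r = 0.97) and Rab15 (r = 0.96), though B3gat3 had a rho of 0.66. Cldn7 was most like Ttll9, Tst and Ift22 (r = 0.97, 0.96 and 0.96). F11r was most like Tor1aip2 (r = 0.99), the phosphofructokinase gene Pfkp (r = 0.98) and the proteasome gene Psma2 (r = 0.97). For Ocln the closest was Amz1 (r = 0.95), for Marveld2 Alg8 (r = 0.95), for Cldn18 Tmem163 (r = 0.92) and for Cdh1 the potassium channel gene Kcnk2 (r = 0.91). These arrays share their normalization, and the values describe only these 10 lungs.

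The upstream sequences of 5 of the genes are shown because their transcripts mark the patterns above: Cldn3 and Cldn7 varied together, Tjp1 varied most, F11r had the smallest p, and Cldn4 is the neighbour of Cldn3 on chromosome 5. Each is the 250 bases before the start of the gene in RefSeq, build GRCm38.p6, written 5′ to 3′ on the strand of the gene. For Cldn7, which has 2 windows in RefSeq, the upstream one is printed. Capitals mark the E-box CAGGTG in either orientation, CAGGTG or CACCTG, a motif through which repressors of the Snail and Zeb families are known to act on Cdh1.
Cldn3, chr5:134985964-134986213, plus strand: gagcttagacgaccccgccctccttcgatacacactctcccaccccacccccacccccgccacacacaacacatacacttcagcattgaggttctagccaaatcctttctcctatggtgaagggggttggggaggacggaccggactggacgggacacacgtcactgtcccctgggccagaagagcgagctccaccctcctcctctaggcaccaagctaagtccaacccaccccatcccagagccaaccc
Cldn7, chr11:69964529-69964778, plus strand: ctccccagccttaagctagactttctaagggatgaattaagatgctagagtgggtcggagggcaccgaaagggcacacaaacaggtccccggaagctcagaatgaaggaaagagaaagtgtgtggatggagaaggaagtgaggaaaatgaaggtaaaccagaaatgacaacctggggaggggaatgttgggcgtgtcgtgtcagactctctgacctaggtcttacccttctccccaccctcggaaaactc
Cldn4, chr5:134946935-134947184, minus strand: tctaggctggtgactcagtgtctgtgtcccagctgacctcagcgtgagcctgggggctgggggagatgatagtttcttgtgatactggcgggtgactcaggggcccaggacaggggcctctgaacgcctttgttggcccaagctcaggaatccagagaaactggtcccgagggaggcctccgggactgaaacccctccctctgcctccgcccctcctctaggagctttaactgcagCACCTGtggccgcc
Tjp1, chr7:65371245-65371494, minus strand: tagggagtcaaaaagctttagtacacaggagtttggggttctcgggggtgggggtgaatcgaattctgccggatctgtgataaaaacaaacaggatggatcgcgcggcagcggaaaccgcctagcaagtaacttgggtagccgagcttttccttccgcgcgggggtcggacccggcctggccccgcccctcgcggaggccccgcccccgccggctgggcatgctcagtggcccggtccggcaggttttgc
F11r, chr1:171437311-171437560, plus strand: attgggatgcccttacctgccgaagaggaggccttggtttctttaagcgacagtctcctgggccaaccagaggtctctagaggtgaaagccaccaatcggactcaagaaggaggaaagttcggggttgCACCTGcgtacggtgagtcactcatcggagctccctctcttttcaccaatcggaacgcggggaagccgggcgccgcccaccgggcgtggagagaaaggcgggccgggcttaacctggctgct
No window of Cdh1 was analysed here. The E-box was in 4 of 12 windows of the other 8 genes, against 17.2% of all 32851 windows of this length. The windows that held it were those of F11r and Cldn4, with 1 copy each, and a further window of each of Cldn7 and Ocln, with 2 copies each. Neither Cldn3 nor Tjp1 had it in this window. A match describes the letters alone.

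The wider junction machinery was read from lists of genes by role, 163 probe sets of 85 genes that passed the filter. Of these, 1 probe set fell, 0 rose and 162 did not pass. Over all probe sets tested 0.178% fell and 0.262% rose, so 1 of 163 is not a result about these lists. Among them 16.6% had an unadjusted p under 0.05, close to the 17.2% of all probe sets tested, and their median log2 fold change was -0.013. The groups did not overlap in 5 of the 163, against 3.86% over all probe sets tested, which is not a result about these lists.

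The probe set that fell was 1417394_at of Klf4, a Krüppel-like factor that activates Cdh1 in cultured epithelial cells. It had 13.26, 13.12, 13.12, 13.25 and 13.19 in arsenic lungs 1 to 5 and 13.57, 13.99, 13.66, 13.57 and 13.90 in control lungs 1 to 5. Every arsenic lung lay below every control, with a log2 fold change of -0.55 (SE 0.098, limma adjusted p = 0.0471). Its call ended in all 10 fits that left out 1 array (adjusted p 0.0588 to 0.128), without a filter (0.0986), with arrays centred on their median (0.0832), when the kidney level was a covariate (0.0881) without arsenic animal 4 and control animal 2 (0.102) and with a replicate block (0.127). Its other probe set, 1417395_at, had -0.61 (adjusted p = 0.152), also without overlap of the groups.

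Other factors that act on junction genes had values without a call. The grainyhead-like factor Grhl1 had 0.43 (adjusted p = 0.178), with every arsenic lung above every control. Snai2, which encodes the repressor Slug, had -0.62 and -0.72 by its 2 probe sets (adjusted p = 0.193 and 0.207). Of the 22 probe sets of this list 8 had an unadjusted p under 0.05, or 36.4%, against 17.2% over all probe sets tested. The groups did not overlap in 3 of the 22, those of Klf4 and Grhl1, against 3.86% over all probe sets tested. The median log2 fold change was -0.26, against 0.026 over all. The list was chosen with earlier results known and was given no test.

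Among 12 probe sets of other claudins none passed, and none had an unadjusted p under 0.05. Cldn2, a claudin of the kidney's proximal tubule that forms cation channels, had the largest difference at 1.00 (SE 0.59, adjusted p = 0.391). It had 5.05, 5.28, 5.29, 6.47 and 2.99 in arsenic lungs 1 to 5 and 3.80, 2.99, 3.64, 5.20 and 4.44 in control lungs 1 to 5. The highest lung, arsenic animal 4, was also the one with the highest kidney level. When the kidney level was a covariate, the log2 fold change of Cldn2 was 0.062 (adjusted p = 0.951). The kidney level itself averaged 5.00 with arsenic and 4.34 in controls, and its part in the Cldn2 difference was not tested. Cldn10 had 0.25 and Cldn1 had 0.17, or as little as 0.099 and 0.039 when 1 array was left out. Cldn5, the claudin of endothelium, was at 12.67 ± 0.23 with arsenic and 12.65 ± 0.35 in controls and was named after its values were seen.

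**Figure D4:**
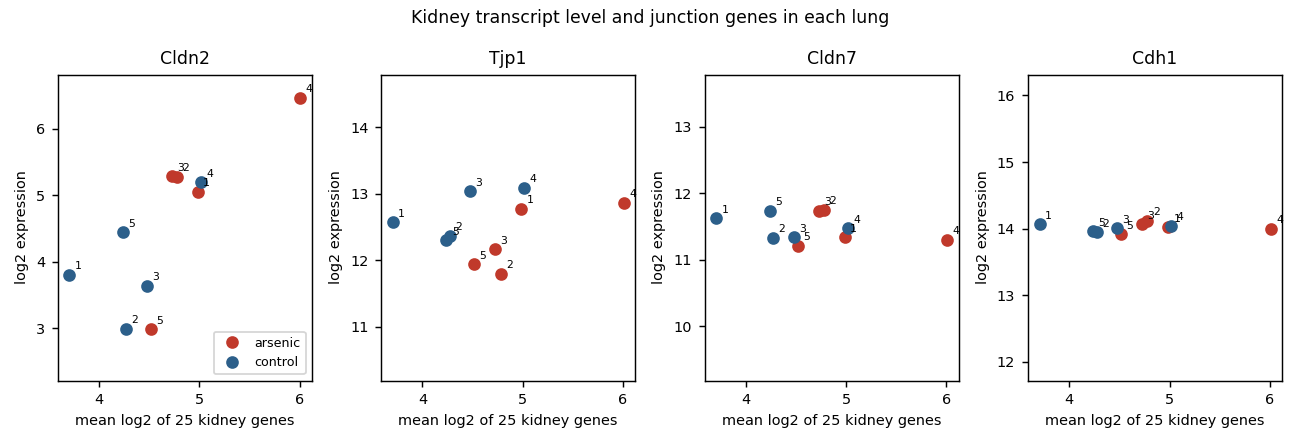
Log2 expression of Cldn2, Tjp1, Cldn7 and Cdh1 against the mean log2 level of 25 kidney genes, with 1 point for each animal, numbered within its group. Every panel spans the same log2 range. Arsenic animal 4 stands apart on the kidney axis and is the highest for Cldn2, while Cdh1 is nearly level over the whole axis.

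Of the other membrane proteins of the tight junction, the coxsackievirus and adenovirus receptor gene Cxadr had -0.64, -0.56 and -0.46 by 3 of its probe sets and -0.080 by the fourth (adjusted p = 0.163, 0.207, 0.232 and 0.761). By 1427321_s_at it had 9.08, 8.01, 8.72, 8.52 and 8.53 in arsenic lungs 1 to 5 and 9.37, 8.92, 9.25, 9.50 and 8.9995 in control lungs 1 to 5. Arsenic animal 1 alone lay among the controls. Marveld3, another MARVEL-domain gene, had 0.19, and the polarity gene Crb3 had 0.16, 0.15 and 0.10, or 0.28, 0.44 and 0.17 when the kidney level was a covariate. The fourth Cxadr probe set then had -0.048.

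Of 21 probe sets of tight junction scaffolds 5 had an unadjusted p under 0.05 and none passed. Magi3 had -0.54, -0.67 and -0.13 by its 3 probe sets, Amotl2 had -0.24, and Magi1 had values of either sign between -0.28 and 0.20. The Magi1 value of -0.28 came from 1427246_at, a dim probe set with means of 4.25 with arsenic and 4.53 in controls. Of 24 probe sets of polarity complexes 1 had an unadjusted p under 0.05, that of Scrib at 0.27 (adjusted p = 0.267). Llgl1 had 0.20, and Dlg1 had -0.29 and -0.15, or -0.45 and -0.31 when the kidney level was a covariate.

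Of 30 adherens junction probe sets, 4 had an unadjusted p under 0.05 and none passed. The probe sets of Ctnna1, which encodes the α-catenin that ties cadherins to actin, went apart: 1437807_x_at had 0.071, 1448149_at had -0.0047 and 1436631_at had -0.58 (adjusted p = 0.647, 0.975 and 0.204). Cdh2, encoding N-cadherin, had -0.41 and Pkp4 had 0.32 and 0.17, or 0.19 and 0.057 when the kidney level was a covariate. The probe set 1437807_x_at of Ctnna1 then had 0.038. Among 12 desmosome probe sets Pkp2 had -0.67 by 1 probe set and 0.15 and 0.098 by the others, Perp had 0.32 and Dsp had -0.31, -0.065 and -0.060. When the kidney level was a covariate, Dsp had -0.43, -0.36 and -0.33, and the last Pkp2 value was 0.16.

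Of 25 probe sets of junction regulators 5 had an unadjusted p under 0.05 and none passed. Itch, which encodes a ubiquitin ligase, had -0.85, -0.93, -0.59 and -0.19 (adjusted p = 0.0821, 0.207, 0.220 and 0.441). By 1440582_at it had 6.82, 5.96, 6.76, 6.81 and 6.20 in arsenic lungs 1 to 5 and 7.52, 7.14, 7.57, 7.29 and 7.29 in control lungs 1 to 5, without overlap. Rock1, encoding a kinase that contracts the actin belt of the junction, had -0.56, -0.34, -0.34 and -0.22 by its 4 probe sets. When the kidney level was a covariate these were -0.96, -0.76, -0.39 and -0.57 (lowest adjusted p = 0.112). Mylk, the myosin light chain kinase, had -0.25, -0.12 and 0.041, the last being 0.020 when the kidney level was a covariate.

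**Figure D5:**
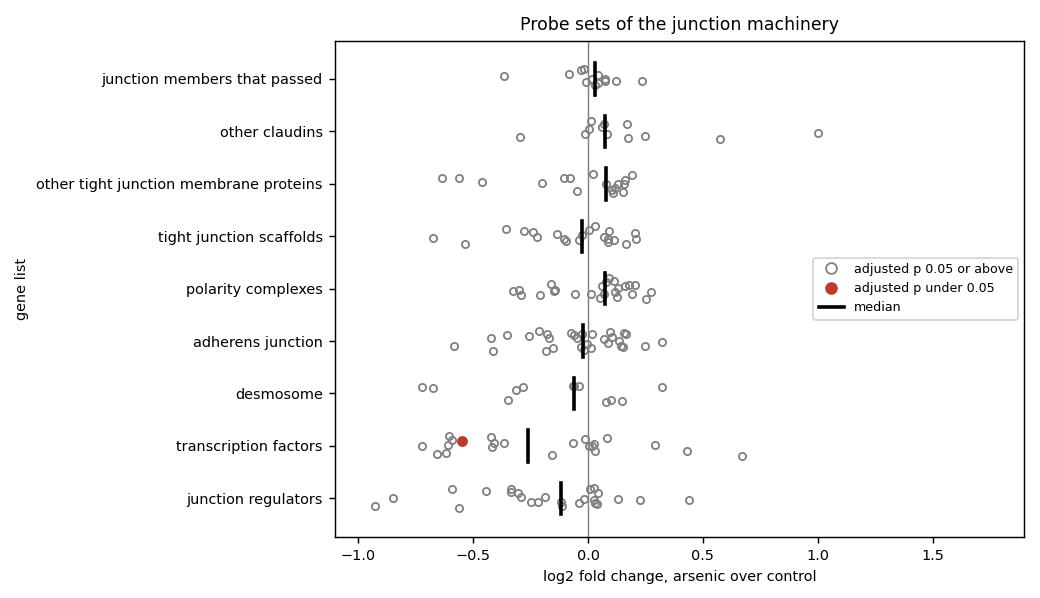
Log2 fold change, arsenic over control, of every probe set that passed the filter, for the junction members at the top and each list of related genes below. Each point is a probe set and the black bar is the median of its row. The filled point is Klf4, the only probe set shown with an adjusted p under 0.05.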

How the data were processed

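The deposited file gives log2 values of 45101 probe sets on 10 arrays. GCRMA, named in the submitters' processing notes, corrects background from probe sequence, normalizes between arrays and summarises probes. The log2 scale fits the range of the deposited values, 0.619 to 16.3. RNA was extracted with Trizol and cleaned on Qiagen columns, per the labels' protocols. Groups came from the titles, which also carry 20 as a number in every arsenic sample and 4 in every control; if it marks a cage or batch, that cannot be told apart from exposure. The protocol of control animal 4 gives no dose.

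Control probe sets (64) were left out, and the filter of values over 4.20 on at least 5 arrays left 22495. These were tested in limma 3.58.1 (R 4.3.3) by lmFit and eBayes, two-sided, with Benjamini-Hochberg adjustment over all 22495 and a threshold of 0.05; intervals are its 95% intervals. The test was checked on simulated data. Probe sets of 1 gene were ranked by mean only to choose 1 for each gene, and no level was compared between genes. Permutation tests of correlations used 100000 resamples. Symbols of all 15 junction probe sets were the same in RefSeq through Entrez identifiers. The number of arrays limits the precision.

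The genes named were all 9 members, and from each list of related genes those past the threshold and the 3 of smallest p. Members, lists and tests were chosen with earlier results of these data known. Alternatives were other filters, 1 probe set per gene, quantile normalization, centring on the median, array weights, eBayes with a trend and robust fit, a replicate block, another threshold, the kidney level as a covariate, and leaving out arrays. Figures were drawn with matplotlib 3.10.9.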

Additional observations from a re-analysis of the deposited data

How the results depend on the processing

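None of the junction probe sets passed an adjusted p of 0.05 in the main analysis or in any alternative run. This does not show equality, and in the alternatives that called few probe sets of the whole array it says little about these genes. Without arsenic animal 4 and control animal 2, 2 of the 13 had an unadjusted limma p under 0.05. The number was 1 without a filter, with the 75th percentile filter, with 1 probe set per gene, with median centring and with array weights. It was also 1 with the trended and robust fit and with the kidney level as a covariate. It was 0 with quantile normalization and with the replicate block. Leaving out arsenic replicate 3 or 4, or control replicate 4 or 5, gave 1, and leaving out any other array gave 0. The count over all probe sets was less steady: it was 99 in the main analysis, 19 without a filter, 54 with 1 probe set per gene, 167 with array weights, 241 at a threshold of 0.10, 12 when the kidney level was a covariate and 0 without arsenic animal 4 and control animal 2 (limma; 5133 had an unadjusted p under 0.05). With the replicate block it was 4, and the block gave no junction gene a call. For animals of the same replicate number, deviations from the group means correlated at -0.26 to 0.15. No animal had its highest such correlation with the animal of its own number in the other group. Whether such animals share more than the number was given no formal test. Leaving out 1 array gave 12 to 97, with 24, 29 and 13 without arsenic replicates 2, 3 and 5 and 12, 23, 18 and 43 without control replicates 1, 2, 3 and 4; the cause was not tested. Of the junction genes F11r, Marveld2 and Tjp1 kept their sign in all alternatives, as did 1440220_at of Ocln. Leaving out 1 array gave F11r 0.17 to 0.28, Marveld2 0.058 to 0.21, Tjp1 -0.51 to -0.24 and 1440220_at of Ocln -0.13 to -0.013. Signs of the others, whose values lay near 0, turned. Cldn3 (1426332_a_at) had -0.0086 with array weights. With median centring Cldn7 had 0.030, Cldn18 (1449428_at) 0.046 and Ocln (1448873_at) 0.055; when the kidney level was a covariate they had 0.060, 0.050 and 0.083. Without arsenic animal 4 and control animal 2, Cldn18 had 0.073 and Ocln 0.061, and with array weights Ocln had 0.011. Leaving out 1 array gave Cldn3 -0.046 to 0.12, -0.0058 to 0.17, -0.037 to 0.13 and -0.010 to 0.17 by its 4 probe sets. It gave Cldn7 -0.10 to 0.031, Cldn18 -0.062 to 0.099 and -0.061 to 0.030, Ocln -0.041 to 0.060 and Cdh1 -0.0043 to 0.045. Among related genes, Cxadr (1449949_a_at) had 0.0045 with array weights. Magi1 (1440871_at) had 0.043 with quantile normalization, 0.023 with median centring and 0.0096 without arsenic animal 4 and control animal 2. Ctnna1 (1448149_at) had 0.058 with median centring and 0.0011 with array weights, and Dsp (1435494_s_at) had 0.0036 with median centring. Leaving out 1 array gave Magi1 -0.086 to 0.0063, Ctnna1 -0.027 to 0.021, Dsp -0.17 to 0.061 and -0.14 to 0.061, and Mylk (1425504_at) -0.055 to 0.12. Klf4 had -0.59 to -0.49 and lost its call in each of these 10 fits. GCRMA draws dim probe sets to a floor, which limits what Cldn4, Cldn2 and the dim probe sets of Snai2, Pkp2 and Magi1 can show.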
